A study of Oryza sativa with 18 samples.

Results

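Chromosome 3 of rice carried more R-loop peaks per Mb than any other chromosome, and the regions described here are those on its 2 arms. Peaks of 17 libraries were merged wherever they shared at least 1 bp, and a merged region was kept when its midpoint lay on chromosome 3 within the first 16.5 Mb (short arm) or from 22.5 Mb to the last peak base at 36413714 (long arm). This gave 8471 regions of 89277 in the genome, 4641 on the short arm and 3830 on the long arm. The arms were chosen by their peak density in these same lists, chromosome 3 having ranked first in 17 of the 17 libraries, so their density against other chromosomes is given as a description with no test. At the bounds, the last region inside the short arm lay at 16499287 to 16499661 with a peak in 3 libraries, and the next one outside at 16502241 to 16503767 with a peak in 17. On the other side the last region outside lay at 22496297 to 22496680 (1 library), and the first inside the long arm at 22507548 to 22507929 (8 libraries).

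An R-loop is a stretch of DNA in which an RNA strand pairs with its template and leaves the other DNA strand single. R-loops form mostly while RNA is being made, so they are found mainly in and near transcribed genes, and RNase H removes them by cutting the RNA of the hybrid. The arms of rice chromosome 3 are known as largely euchromatic and rich in genes, whereas the sequence around rice centromeres is rich in repeats.

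ISRH-seq replaces the RNA of the hybrid with biotin-labelled DNA, by RNase H and DNA polymerase I acting on sonicated genomic DNA, and sequences the captured strand as a single-stranded library. All libraries came from seedlings of WT genotype. There were 13 libraries titled by the amount of input DNA, with 2 each at 8, 5, 3 and 1 µg and at 500 and 250 ng and 1 at 100 ng. The other libraries were 2 titled salt, 2 titled CK(salt) and 1 titled RNaseH, which was left out of the merging. For salt, the labels give 150 mM NaCl and a treatment of 3 days, and the same treatment label stands on the CK(salt) libraries, so those groups were taken from the titles. The input amounts of the salt, CK(salt) and RNaseH libraries are not given in the sources used here, and nothing says that libraries of a group came from separate plants. A p-value here thus speaks for the variation from library to library alone, and that variation may be technical.

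Each library was a list of peaks without read counts, and depth was read from the peaks themselves as the background coverage, in fragments per position. It was 11.4 and 12.7 at 8 µg, between 4.82 and 7.84 in the libraries from 5 µg to 250 ng, and 0.88 at 100 ng. The salt libraries had 6.74 and 3.88, and the CK(salt) libraries 8.60 and 4.30. The 100 ng library stood apart by its depth, and the results below that rest on it are given with and without it.

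Peaks were spaced almost alike on the 2 arms in every library. The short arm held 227 and 208 peaks per Mb at 8 µg, 152 and 182 at 5 µg, 151 and 184 at 3 µg, and 176 and 165 at 1 µg. It held 151 and 154 peaks per Mb at 500 ng, 145 and 152 at 250 ng, and 43.9 at 100 ng. The long arm held 222 and 208 peaks per Mb at 8 µg, 158 and 185 at 5 µg, 155 and 187 at 3 µg, and 175 and 161 at 1 µg. At 500 ng it held 149.6 and 148, at 250 ng 139 and 145, and at 100 ng 45.9 peaks per Mb. Except at 100 ng, libraries at 8 µg had the highest values on both arms and those at 250 ng the lowest on the long arm, while the arms of any 1 library lay close together. The density on chromosomes 1 and 2 outside their middle stretches (14 to 20 Mb and 11 to 17 Mb), the next densest, was 211 and 197 peaks per Mb at 8 µg and 42.4 at 100 ng. The middle of chromosome 3, between the arms, had 170.2 and 162.5 peaks per Mb at 8 µg.

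**Figure D1:**
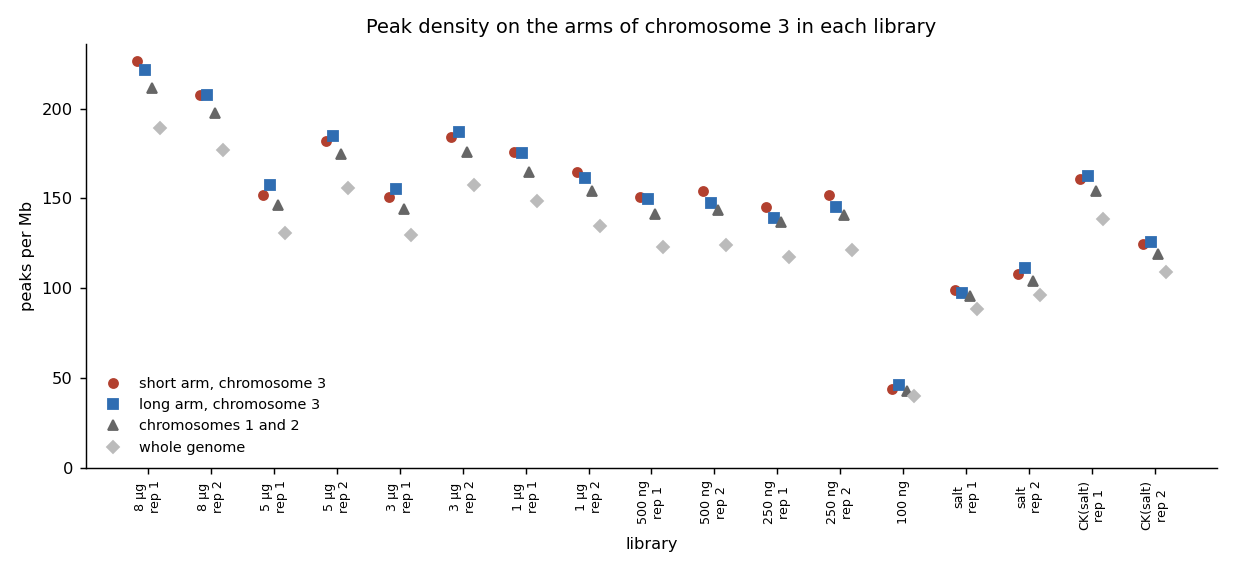
Peak density (peaks per Mb, vertical axis) in each of 17 libraries for the short and the long arm of chromosome 3, for chromosomes 1 and 2 outside their middle stretches and for the whole genome. Each point is 1 library's value; the arms lie close together in every library, at 227 and 222 in 8 µg replicate 1 and at 43.9 and 45.9 at 100 ng.

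The ratio of short-arm to long-arm density ran from 0.955 at 100 ng to 1.05 in 250 ng replicate 1, with a median of 1.002 over the 13 input libraries. Its log2 value was 0.0048 on average (SD 0.045, n = 13) and above 0 in 7 of 13 libraries, which did not differ from 0 in an exact two-sided sign-flip permutation test (adjusted p = 0.699 over 3 arm comparisons). The median peak width on the short arm had its lowest value, 264 bp, at 100 ng, a median over libraries of 432 bp and its highest value, 526 bp, in 250 ng replicate 2. On the long arm these values were 279, 437 and 530 bp. The short-arm minus the long-arm width was -2.04 bp on average (SD 10.3, n = 13; adjusted p = 0.699, same test), so neither density nor width set the arms apart beyond the spread of the libraries. Among strong peaks the density did differ. With all 13 lists cut to their 14845 best-scored peaks, the length of the 100 ng list, the short arm was the sparser in 13 of 13 libraries, by 0.070 on the log2 scale (mean -0.070, SD 0.037, n = 13; exact sign-flip test, p = 0.000244, the smallest it can give, adjusted p = 0.000732). This cut was added after the data were seen.

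Peaks on the long arm stood higher over their local background than those on the short arm. The deposited fold of a peak is the authors' own value, the summit pileup over the local background, and the arms were compared within each list. The median fold ran from 3.63 through 4.74 to 6.01 (lowest, median and highest library) on the short arm and from 3.79 through 4.94 to 5.93 on the long arm. The short arm was lower in 10 of 13 libraries, equal in 5 µg replicate 2, and higher in 5 µg replicate 1 and at 100 ng. The mean difference was -0.095 (SD 0.094, n = 13), which passed the exact sign-flip test (p = 0.00635, adjusted p = 0.0190). The difference was negative in 4 of the 4 salt and CK(salt) libraries too, from -0.129 to -0.031. With 1 mean value per input amount in place of 13 libraries, the difference of -0.082 no longer passed the exact test (adjusted p = 0.234). Among the 14845 best-scored peaks of each list the difference was 0.044 in the other direction (SD 0.103, n = 13; adjusted p = 0.227, same test), so the call did not extend to the strongest peaks.

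Against chromosomes 1 and 2, the pooled arms differed little in the measures that their choice did not use. The median peak width was 3.65 bp greater on the arms (SD 4.67, n = 13), greater in 10 libraries, equal in 2 and smaller in 3 µg replicate 1. This passed the exact sign-flip test (adjusted p = 0.0410 over 2 comparisons), but leaving out any 1 of 10 libraries ended the call (3.04 to 3.88 bp, adjusted p up to 0.0820); it held only without 3 µg replicate 1, 1 µg replicate 2 or the 100 ng library. The difference was 1.69 bp (adjusted p = 0.568) over peaks with a −log10 q of at least 5 and -2.92 bp (adjusted p = 0.264) over the 14845 best-scored peaks of each list, both by the exact test. The median fold differed by 0.0033 (SD 0.028, n = 13; adjusted p = 0.679, exact sign-flip test). Over the 14845 best-scored peaks it was lower on the arms, by a mean of -0.078 and in 10 of 13 libraries (SD 0.072, n = 13; adjusted p = 0.00781, exact sign-flip test).

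Merged over the libraries, regions covered 19.5% of the short arm and 18.9% of the long arm, against 16.0% of the genome. The median region was 580.0 bp wide on the short arm and 578 bp on the long arm, and the median distance to the next region was 1968 and 2031 bp. The longest stretch of the short arm without a region ran over 78647 bp, from 13483763 to 13562409, and that of the long arm over 40432 bp, from 23294614 to 23335045. Both lay towards the middle of the chromosome.

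How often a region was called rose with its width and its strength. A peak in all 17 libraries was found for 454 short-arm regions (9.78%, exact 95% binomial interval 8.94 to 10.7%) and 415 long-arm regions (10.8%, 9.87 to 11.9%), beside 10.6% over all regions of the genome. Both shares were near that of the genome. At the other end, 634 short-arm regions (13.7%) and 529 long-arm regions (13.8%) had a peak in 1 library only, against 14.2% in the genome. The median width was 252 bp for short-arm regions of 1 library and 1058.5 bp for those of all 17, and 255 and 1029 bp on the long arm. Their median score percentile within the lists that called them was 9.79 and 85.8 on the short arm and 9.72 and 84.6 on the long arm. A region that many libraries call can grow by merging, so width and number of libraries are not independent.

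The strongest short-arm region with a peak in all 17 libraries was an 849 bp region near the end of the arm, from 358932 to 359780. Its deposited fold ran from 7.07 to 17.5 with a median of 13.1, and its median score percentile was 99.9. The next were at 66384 to 67166 (median fold 12.7) and 8191308 to 8192839 (11.5), then at 2244610 to 2245871 (11.7) and 9478595 to 9479697 (11.3), ranked by score. On the long arm the strongest region spanned 1242 bp from 34495689 to 34496930, with folds from 6.51 to 15.5 and a median of 10.7. It was followed by 23476311 to 23478128 (median fold 12.7) and 27395181 to 27395971 (14.3), then by 32671590 to 32672609 (11.03) and 27871471 to 27872781 (11.5). All 10 were picked from the regions with a peak in every library, 100 ng included. Of the 10, 0 overlapped an RNaseH peak, which only 0.059% of the regions on both arms and 0.125% of those in the genome did.

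The widest regions common to all libraries were not the strongest. On the short arm they were 3159 bp from 3503253 to 3506411, 2532 bp from 13023968 to 13026499 and 2401 bp from 7871317 to 7873717, with median folds of 5.90, 5.53 and 6.36. On the long arm they were 3759 bp from 25326736 to 25330494, 2837 bp from 30002415 to 30005251 and 2668 bp from 23126371 to 23129038, with median folds of 7.84, 3.88 and 5.33. These widths arose in part from merging, since the median library had 955 to 1461 bp of peaks within each of the 6 regions.

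Along the arms, peak density varied less from tile to tile than over all tiles of the genome, which include the middle stretches of chromosomes. The 17 tiles of the short arm, 1 Mb each except for the innermost of 0.5 Mb, had mean densities over the 13 input libraries from 118 to 178 peaks per Mb with a median of 162. The 14 tiles of the long arm ran from 145 to 169.5 with a median of 162. The coefficient of variation between tiles was 9.96% on the short arm and 5.39% on the long arm, against 20.6% over the 374 tiles of the genome. Those 374 tiles hold the 6 between the arms and the middle stretches of the other chromosomes, whereas the arms leave their middle out. The sets are thus unlike. How far leaving out the middle lowered the variation on the arms was not tested, and no arms of other chromosomes were set beside them. Of the arm tiles, 16 of 17 and 14 of 14 lay above the genome's median tile of 139 peaks per Mb, which the choice of a dense chromosome favours. The 6 tiles between the arms ran from 75.7 to 144.

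The densest short-arm tiles were those from 6 to 7, 11 to 12 and 10 to 11 Mb, at 178 ± 47.7, 177 ± 49.8 and 177 ± 44.4 peaks per Mb (SD, n = 13), the spread being mostly that between input amounts. The sparsest was the tile from 13 to 14 Mb at 118 ± 31.5, which was the sparsest of its arm in 15 of the 17 libraries and holds the longest stretch without a region. Next came the tiles from 16 to 16.5 Mb (141 ± 35.3) and 15 to 16 Mb (148 ± 40.7). On the long arm the densest tiles were those from 26.5 to 27.5 (169.5 ± 47.9), 32.5 to 33.5 (169 ± 47.9) and 31.5 to 32.5 Mb (168 ± 41.9). The sparsest were those from 23.5 to 24.5 (145 ± 45.1), 22.5 to 23.5 (145 ± 37.4) and 27.5 to 28.5 Mb (149 ± 38.1). Tiles of a library share its depth, so neighbours in these orders were set against each other as multiples of the library's median tile over the 12 input libraries of 250 ng and more. The tile from 13 to 14 Mb ran from 0.810 to 0.896 (mean 0.848, SD 0.024, n = 12) and did not overlap the next sparsest, from 16 to 16.5 Mb, at 0.937 to 1.05 (mean 1.004, SD 0.043, n = 12). The other neighbouring tiles named here overlapped.

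Libraries ranked the 31 arm tiles alike, with the exception of 100 ng. Spearman's rho between pairs of the 12 input libraries of 250 ng and more was 0.751 at the median and ran from 0.472 to 0.896. Between the 100 ng library and the other 16 the median was 0.130, from -0.081 to 0.560. These are descriptions over tiles, which share each library's depth. In the same 12 libraries the outer 5 tiles of an arm were denser on average than the inner 5 in 12 of 12 on either arm. On the short arm their median was 1.14 times the library's median tile against 1.06 for the inner 5, and on the long arm 1.19 against 1.13. The 7 tiles between them on the short arm were denser than either, at a median of 1.22, while the 4 on the long arm had 1.14, so density did not rise steadily towards the end of the short arm. At 100 ng the order was the opposite on both arms, at 1.07 against 1.15 and at 1.13 against 1.14. Among the 4 salt and CK(salt) libraries the outer tiles were denser in 1 on the short arm and in 3 on the long arm.

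**Figure D2:**
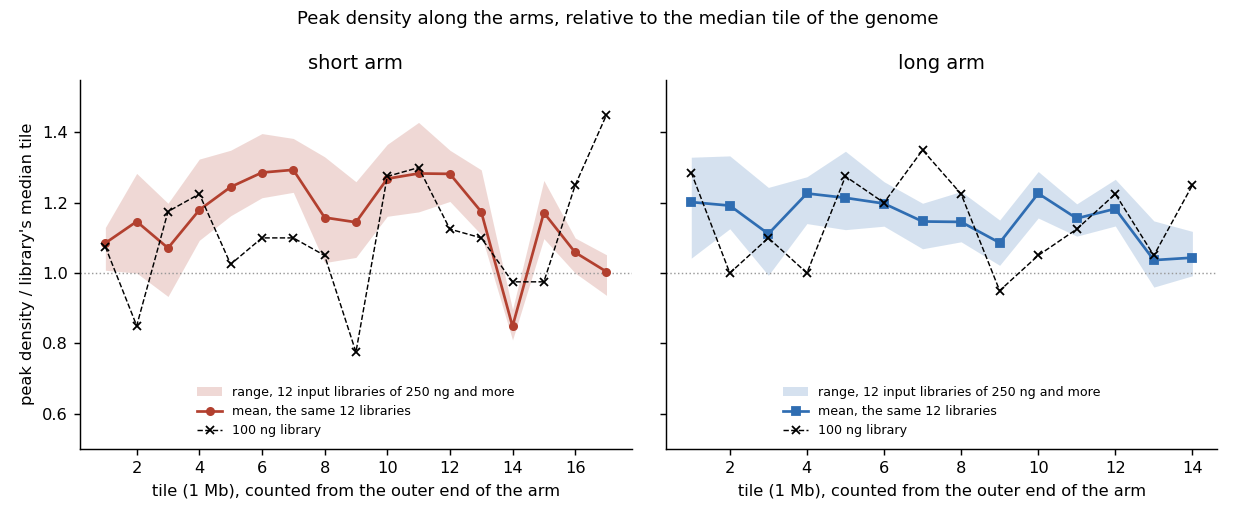
Peak density of each 1 Mb tile divided by the same library's median tile over the genome (vertical axis), against the tile's number from the outer end of the arm, for the short arm (left, 17 tiles) and the long arm (right, 14 tiles). Lines with points are means and bands the range over the 12 input libraries of 250 ng and more, and crosses are the 100 ng library; the short arm dips at tile 14, while the long arm stays within a narrower range.

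With more input DNA, both arms carried more peaks per Mb. On the short arm the 8 µg libraries averaged 217 ± 13.4 peaks per Mb, those of 5 µg 167 ± 21.6, of 3 µg 168 ± 23.7, of 1 µg 170.2 ± 7.76, of 500 ng 152 ± 2.61 and of 250 ng 149 ± 4.54 (SD, n = 2). From 5 to 1 µg, the means lay closer together than the replicates of an amount. Log2 density rose with log2 input on the short arm (r = 0.701, adjusted p = 0.000652; rho = 0.759, adjusted p = 0.00844) and on the long arm (r = 0.744, adjusted p = 0.00063; rho = 0.903, adjusted p = 0.00054), by permutation over 13 libraries and with adjustment over 9 relations. Without the 100 ng library and either 8 µg library, r was 0.655 to 0.657 on the short arm and 0.783 to 0.792 on the long arm. Library codes in the peak names form runs, which may be a batch although no label says so; within the runs with several amounts (8 libraries) r was 0.524 (exact permutation, adjusted p = 0.0938) and 0.772 (adjusted p = 0.050), so neither arm was below the 0.05 threshold within runs.

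Depth moved with both. Density followed log2 background coverage with r = 0.967 on the short arm and 0.968 on the long arm, and at constant background coverage its relation to input was -0.049 (permutation p = 0.872) and 0.201 (p = 0.507). With all 13 lists cut to the 14845 best-scored peaks, r was -0.158 and -0.096 (adjusted p = 0.756 for each, permutation). With the 12 lists of 250 ng and more cut to 43744 peaks each, it was -0.859 on the short arm (permutation, adjusted p = 0.00261) and -0.074 on the long arm (adjusted p = 0.825). So neither arm's density rose with input in a way that passed the test once depth or list length was held alike. In lists of 1 length density and share of peaks are the same measure, and the value of the short arm is that of its share, which comes next.

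The share of peaks on the short arm moved with input in the opposite way once the 100 ng library was set aside. The short arm held 5.30 and 5.20% of a list's peaks at 8 µg, 5.14 and 5.17% at 5 µg, 5.15 and 5.18% at 3 µg, and 5.24 and 5.43% at 1 µg. It held 5.42 and 5.50% at 500 ng, 5.48 and 5.54% at 250 ng, and 4.88% at 100 ng. Down to 250 ng the share was thus highest at low input, and the 100 ng library had the lowest share of all. Chromosomes 1 and 2 outside their middle stretches took the same course, with a mean of 20.1% at 8 µg, 20.07% at 3 µg, 20.8% at 500 ng, 20.97% at 250 ng and 19.2% at 100 ng, so it was not seen on the short arm alone. The long arm's share ran from 4.30% at 100 ng to 4.54% in 500 ng replicate 1 and showed no such order.

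Over the 13 libraries the short-arm share had no relation to log2 input that passed the test (r = -0.224, permutation p = 0.462, adjusted p = 0.693; rho = -0.360, adjusted p = 0.375). Without the 100 ng library r was -0.853 (permutation p = 0.00148, adjusted p = 0.00668), and without that library and either 8 µg library it was -0.920 and -0.849. Within runs it was -0.925 (exact permutation p = 0.0139, adjusted p = 0.0313), and at constant background coverage -0.808 (permutation p = 0.00115). The log2 ratio of the arms' densities behaved alike, with r = -0.273 over 13 libraries (adjusted p = 0.648), -0.696 without 100 ng (adjusted p = 0.0162) and -0.949 within runs (exact permutation, adjusted p = 0.0313). The long-arm share gave r = 0.073 over all 13 (permutation p = 0.814) and -0.387 without 100 ng (p = 0.213). The size of the shift was small, since the short arm held 5.15% at 5 µg and 5.51% at 250 ng.

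**Figure D3:**
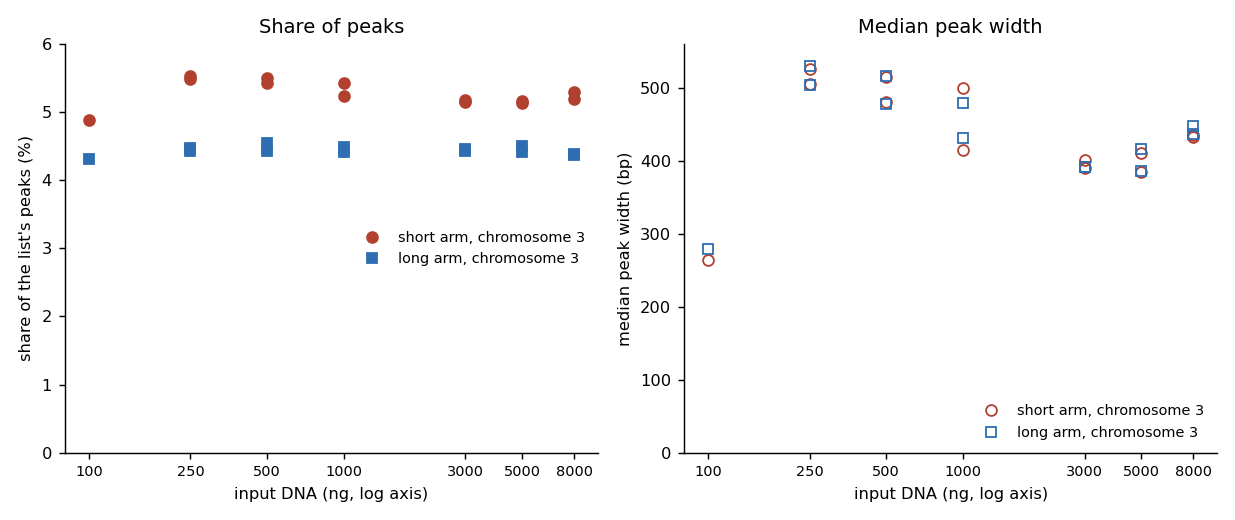
Share of a list's peaks on each arm (left, percent) and median peak width (right, bp) against input DNA (ng, log axis) in the 13 input libraries; each point is 1 library, with 2 per amount except at 100 ng. The short-arm share is highest at 250 ng, 5.48 and 5.54%, and lowest at 100 ng, 4.88%, and the widths show the same drop at 100 ng.

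Peak widths on the arms followed the same course, as did those of the whole genome. The short-arm median was 432 and 435 bp at 8 µg, 385 and 411 at 5 µg, 390 and 401 at 3 µg, 415 and 500 at 1 µg, 481 and 515 at 500 ng and 505 and 526 at 250 ng, before it dropped to 264 bp at 100 ng. Over all peaks of the genome the mean of the library medians was 433.5 bp at 8 µg, 394 at 3 µg and 502.5 at 250 ng, and the median at 100 ng was 273 bp. Widths at 500 and 250 ng lay above all those at 3 µg and more, without overlap. Over 13 libraries r with log2 input was -0.103 on the short arm and -0.114 on the long arm (adjusted p = 0.814 for each, permutation), and without 100 ng it was -0.806 and -0.794 (adjusted p = 0.00668 for each). Within runs the values were -0.844 (exact permutation, adjusted p = 0.0714) and -0.881 (adjusted p = 0.0625), which did not pass. They did not pass either with the 12 lists of 250 ng and more cut to equal length, at -0.313 (permutation, adjusted p = 0.475) and -0.256 (adjusted p = 0.535). At constant background coverage, over all 13 libraries, r was -0.773 on the short arm (permutation p = 0.0021, not adjusted) and -0.816 on the long arm (p = 0.00099).

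Less of the 8 µg landscape on the arms was found again at lower input. Peaks in both 8 µg libraries defined 2972 regions on the short arm and 2509 on the long arm. Of the short-arm regions, 74.3 and 87.3% had a peak in the 5 µg libraries, 74.1 and 86.4% at 3 µg, 82.9 and 68.4% at 1 µg, 65.4 and 61.3% at 500 ng, 55.8 and 61.0% at 250 ng and 23.4% at 100 ng. The long arm gave 77.5 and 89.4% at 5 µg, 76.6 and 87.2% at 3 µg, 84.1 and 69.2% at 1 µg, 66.2 and 60.9% at 500 ng, 55.1 and 60.4% at 250 ng and 24.7% at 100 ng. The long arm was above the short arm in each library of 1 µg and more, and below it in 3 of the 4 libraries at 500 and 250 ng. Over the genome the values ran from 88.1% in 5 µg replicate 2 to 25.01% at 100 ng.

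Recovery rose with log2 input on both arms (r = 0.850, adjusted p = 0.000652, and r = 0.878, adjusted p = 0.00063, permutation over 11 libraries). It also followed background coverage (r = 0.893 and 0.872), and at constant background coverage its relation to input was 0.840 and 0.877 (permutation p = 0.00066 and 0.00023). With all lists cut to 14845 peaks r was 0.742 and 0.641 and no longer passed (permutation, adjusted p = 0.0810 and 0.156). Weak regions were found again less often than strong ones. Regions were ranked into deciles of strength over the genome. Of the short-arm regions in the weakest decile, 1 in 324 (0.309%) was found at 100 ng, compared with 86.3% of those in the strongest decile. On the long arm these shares were 0.394 and 88.3%, and over the genome 0.876 and 88.4%. At 250 ng they were 32.4 ± 0.436 and 95.2 ± 3.24% on the short arm and 23.8 ± 1.95 and 94.6 ± 3.54% on the long arm, against 25.8 ± 1.60 and 94.3 ± 3.38% over the genome (SD, n = 2).

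**Figure D4:**
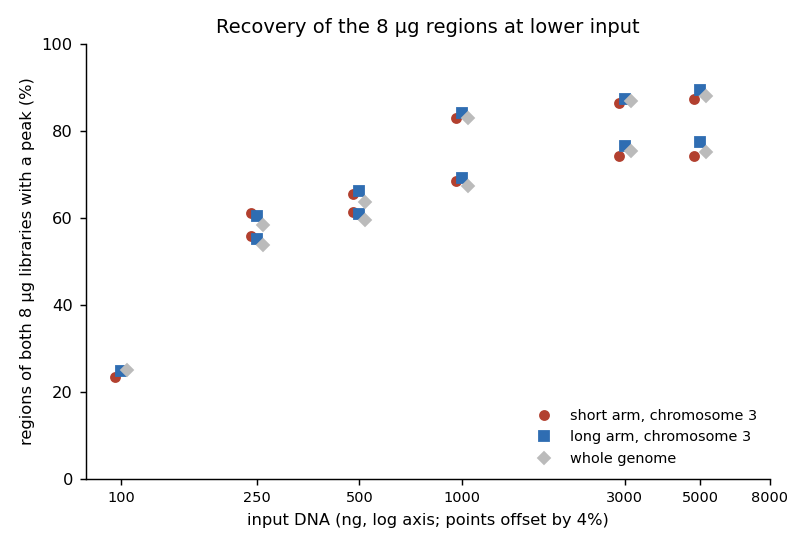
Percent of the regions called in both 8 µg libraries that had a peak in each other input library (vertical axis), against input DNA (ng, log axis), for both arms and the genome; each point is 1 of 11 libraries. Recovery on the short arm lies at 74.3 and 87.3% at 5 µg, 55.8 and 61.0% at 250 ng and 23.4% at 100 ng, and the arms and the genome lie close together.

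For tiles, log2(peaks per Mb + 1) minus the library's median tile was fitted on log2 input with limma, over all 374 tiles. A slope above 0, with an adjusted p below 0.05, was called in 28 tiles of the genome (7.49%) and a slope below 0 in 24 (6.42%). Of the 31 arm tiles 1 rose and 2 fell, in all 9.68% of them against 13.9% in the genome. These counts are too small to compare the shares. The tile from 2 to 3 Mb fell by 0.039 per doubling of input (SE 0.010, limma adjusted p = 0.0246). Its density was 1.20 and 1.14 times the library's median tile at 250 ng, 1.06 and 1.11 at 1 µg and 0.956 and 0.988 at 5 µg, with 1.07 and 1.06 at 8 µg. The tile beside it, from 3 to 4 Mb, fell by 0.028 (SE 0.0087, limma adjusted p = 0.0469), from 1.32 and 1.23 at 250 ng to 1.13 and 1.14 at 8 µg. The tile from 23.5 to 24.5 Mb rose by 0.030 (SE 0.0092, limma adjusted p = 0.0429), from 0.972 and 0.960 at 250 ng to 1.10 and 1.15 at 8 µg. In each of these 3 tiles the 250 ng and 8 µg libraries did not overlap.

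These calls depended on single libraries. The tile from 2 to 3 Mb lost its call without 5 µg replicate 2 (limma adjusted p = 0.0601) or 250 ng replicate 1 (0.0558). The tile from 3 to 4 Mb kept it only without 1 µg replicate 1 or without 100 ng, and lost it without any 1 of the other 11 (adjusted p up to 0.114). The tile from 23.5 Mb kept it only without either 1 µg library or without 100 ng (adjusted p up to 0.129 in the other 10). Without 100 ng the calls rose to 99 tiles above 0 (26.5%) and 83 below 0 (22.2%) in the genome. On the short arm 2 of 17 tiles then rose and 9 fell, and on the long arm 2 of 14 rose and 4 fell, so the arms had more falling than rising tiles in that fit. The steepest of these, chosen after their values were seen, were the tile from 7 to 8 Mb (-0.054, limma adjusted p = 0.00034) and the outermost long-arm tile from 35.5 Mb (0.049, adjusted p = 0.0015). The latter had 1.22 and 1.18 times the median tile at 8 µg, 1.33 and 1.28 at 5 µg, 1.14 and 1.10 at 500 ng and 1.05 and 1.042 at 250 ng, but 1.29 at 100 ng. With no normalization the median slope over the genome moved to 0.19, and 31 of 31 arm tiles and 374 of 374 in the genome were called as rising.

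Salt libraries had fewer, narrower and lower peaks on both arms than CK(salt) libraries. The short arm held 98.7 and 108 peaks per Mb under salt, compared with 160.5 and 125 for CK(salt), and the long arm 97.3 and 111 against 162 and 126. The median width on the short arm was 348 and 308 bp under salt and 425 and 392 bp in CK(salt), and on the long arm 353 and 312.5 bp against 422 and 399.5 bp. The groups did not overlap in either measure. The log2 density difference was -0.45 on the short arm and -0.46 on the long arm, and the widths differed by -80.5 and -78 bp. The median fold was 3.90 and 4.47 under salt and 4.70 and 4.91 in CK(salt) on the short arm, a difference of -0.619, and it differed by -0.697 on the long arm. Fold depends on a library's depth, so these values are set side by side as a description.

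With 2 libraries against 2, an exact two-sided permutation test cannot give a p below 0.333, which is the value of each of these comparisons. The whole genome differed the same way, with salt density at 63.5 and 88.5% of that of the same-numbered CK(salt) library, compared with 61.5 and 86.6% on the short arm and 60.0 and 88.2% on the long arm. The arms' share of all peaks differed by -0.134 percentage points on the short arm (4.96 and 4.97% against 5.12 and 5.07%) and by -0.128 on the long arm (4.12 and 4.31% against 4.37 and 4.32%; exact p = 0.333 for each). Background coverage was lower in the salt library of each number, 6.74 against 8.60 and 3.88 against 4.30. Across numbers it was not always lower, since salt replicate 1 had 6.74 and CK(salt) replicate 2 had 4.30. On the short arm these 2 libraries had 98.7 against 125 peaks per Mb and widths of 348 against 392 bp. The part of background coverage in the result was not tested. With the 4 lists cut to equal length, the log2 density differed by only -0.018 and -0.065, and the widths differed by -125.5 and -120.0 bp. The cut took the lowest-scored peaks out of the longer lists, so it changed which peaks entered the widths. How far this moved them was not tested.

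Of the tiles, 0 of 374 in the genome (0%) and 0 of the 31 on the arms passed an adjusted p of 0.05 in limma for salt against CK(salt). At an unadjusted p below 0.05 there were 28 higher and 9 lower tiles in the genome and 0 on the arms. The adjusted count of 0 on the arms held under each alternative run, whereas unadjusted counts reached 3 lower arm tiles at −log10 q of at least 5 and 26 with no normalization. Covered bases in place of peak number called 10 tiles as higher and 1 as lower elsewhere in the genome after adjustment. The arm tile with the largest difference, from 1 to 2 Mb, differed by -0.12 (SE 0.068, limma adjusted p = 0.548).

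Regions lost under salt were those with a peak in both CK(salt) libraries and in neither salt library. On the short arm 226 of 1813 were lost (12.5%, exact 95% binomial interval 10.98 to 14.1%) and on the long arm 212 of 1560 (13.6%, 11.9 to 15.4%), beside 12.1% over the genome. Gained regions, the reverse, were 8 of 1203 (0.665%) and 7 of 1018 (0.688%), beside 0.617% over the genome. These shares were near the background of the genome, and the intervals cover counting error only. With lists of equal length 5.46 and 7.39% were lost (genome 5.73%) and 4.72 and 3.28% gained (genome 4.23%), so losses and gains were more alike then. Leaving out 1 of the 4 libraries gave 16.1 to 28.3% lost on the short arm and 17.1 to 28.5% on the long arm, beside 16.0 to 26.3% in the genome. This loosened the definition. Without a salt library the peak had to be absent from only 1, so the lost share could not fall. Without a CK(salt) library a peak in only 1 was enough.

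Losses were concentrated in weak regions. In the weakest decile of the CK(salt) regions, ranked over the genome by score, 88 of 183 short-arm regions (48.1%) and 69 of 147 long-arm regions (46.9%) were lost, against 43.8% in the genome. In the fifth decile these shares were 9.86 and 10.6%, and in the strongest decile 0 of 157 and 0 of 128 were lost. Regions that were kept were mostly narrower under salt. Of the regions with a peak in all 4 libraries, 93.0% of 1137 on the short arm and 94.8% of 967 on the long arm had fewer peak bases under salt, near the 92.95% of 22881 in the genome. Their median was 397.5 bp under salt against 556.5 bp in CK(salt) on the short arm and 418.5 against 570.0 bp on the long arm, and the median ratio was 0.751 and 0.764, compared with 0.778 in the genome.

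**Figure D5:**
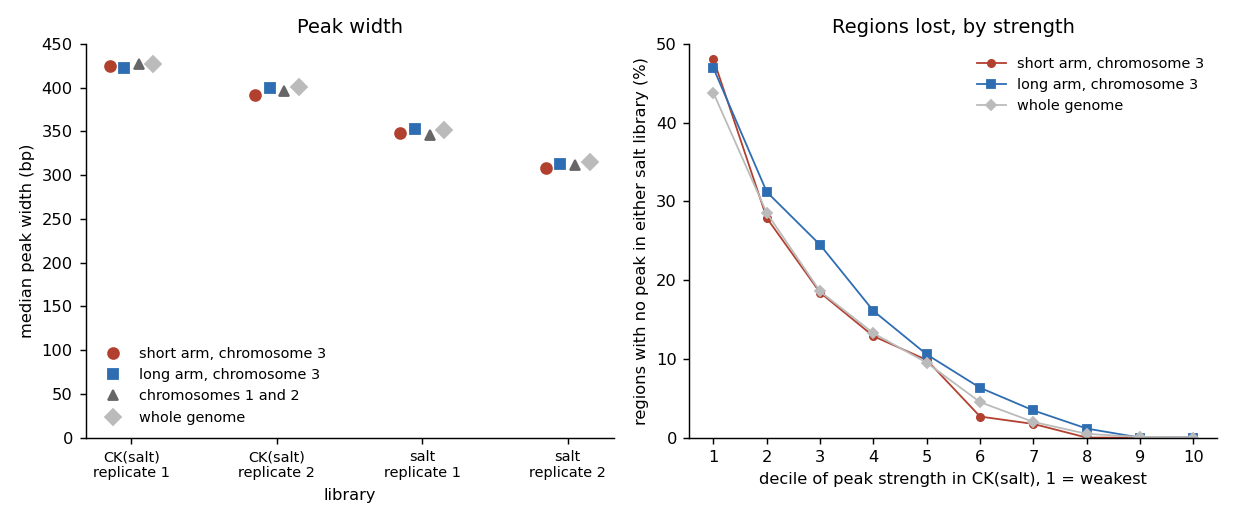
Median peak width (left, bp) in each salt and CK(salt) library, and percent of regions of both CK(salt) libraries without a peak in either salt library (right) by deciles of peak strength in CK(salt), for both arms of chromosome 3 and the genome (left also chromosomes 1 and 2). Widths on the arms lie at 308 to 353 bp under salt and 392 to 425 bp in CK(salt), and the lost share falls from 48.1 and 46.9% in the weakest decile to 0 in the strongest.

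The strongest lost regions show how such a call looks in the lists. The first on the short arm, 585 bp from 14474601 to 14475185, reached a fold of 7.29 and 7.55 in CK(salt), with no peak in either salt library and a peak in 11 of 13 input libraries. The others were at 7576955 to 7577705 and 6447979 to 6448240, with CK(salt) folds of 6.62 and 6.48 and of 6.77 and 6.61. On the long arm they were at 36091462 to 36091847 (7.50 and 8.87), 36246251 to 36247674 (5.82 and 5.79) and 35350146 to 35350676 (5.38 and 6.42), all within the outermost 2 tiles. The strongest gained region of the long arm, 352 bp from 26607009 to 26607360, had folds of 9.14 and 8.50 under salt, a peak in 8 of 13 input libraries, and shared bases with an RNaseH peak. The next, from 28718041 to 28718428, had folds of 9.42 and 7.04 and a peak in 8 input libraries, so both had been called in WT libraries outside the CK(salt) group. The third, at 24747023 to 24747311, and the gained regions of the short arm at 16022344 to 16022583, 3750497 to 3750726 and 15836479 to 15838377 had folds under 5 in both salt libraries. Of the 15 gained regions 3, all on the short arm, had no peak in any input library, beside 6 of 149 in the genome, which includes the arms.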

How the data were processed

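Peaks of 18 ISRH-seq libraries were used as deposited, 1 list per library. The submitters' processing notes name Bowtie2 and MACS2 2.1.4. Their genome build was not found in the sources used here, coordinates are those of the lists, and no gene or sequence was assigned. In the deposited lists the score ranks peaks, the fold is a ratio of pileup to local background, with each peak's p-value and q-value on the −log10 scale. No list holds read counts, so background coverage was solved from fold and p-value of the summits (tolerance 0.002). Peaks went to an arm or a 1 Mb tile by midpoint, and tiles under 0.5 Mb were left out.

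Paired arm values were tested by exact sign-flip permutation, and relations to input by 100000 permutations. Tiles were fitted with limma 3.58.1 in R 4.3.3 and a pseudocount of 1. Adjustment was by Benjamini-Hochberg. The limma fit was tried on simulated data with planted changes larger than those of the arm tiles after scaling. That trial does not speak to changes of the size seen here. Members, lists and tests were chosen with earlier results of these data known. Named regions per arm were the 5 strongest and 3 widest in all 17 libraries, the 3 strongest lost and gained and those overlapping RNaseH peaks, and named tiles the 3 densest, 3 sparsest and those called. Runs of consecutive library codes in the peak names served as a possible batch, which no label states.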

Additional observations from a re-analysis of the deposited data

Results flagged for a closer look

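The library titled RNaseH, whose peaks entered none of the comparisons, had 5 peaks on the arms, 3 on the short and 2 on the long arm, out of 123 in its list. They were flagged as signal in a library outside the main measurement, and their number was not high. Per Mb this was 0.164 on the arms against 0.330 in the genome, and it compares with 43.9 to 227 peaks per Mb on the short arm in the other libraries. Neither its input amount nor when RNase H acted is given in the sources used here, and there is 1 such library.

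The 3 short-arm peaks lay within one another's neighbourhood, at 13642738 to 13643115, 13643462 to 13643732 and 13644428 to 13644777, inside the sparsest tile of the arm. Their deposited folds were 5.61, 5.47 and 8.83. Regions of the other libraries overlapped them in 17, 14 and 17 of 17 libraries. The long-arm peaks lay at 26607040 to 26607320 (fold 7.33; 10 libraries) and 31810546 to 31810781 (fold 7.55; 16 libraries). The region over the second of these, from 31810524 to 31810796, is listed with folds of 10.6 and 13.7 under salt and, for CK(salt), 4.27 and 8.69, which come from libraries of unequal depth.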

How the results depend on the processing

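Of 570 alternative values, 389 kept their direction and side of the threshold or, for counts and shares, stayed close to the reported value. Some could not differ from the main values. The filter of at least 20 peaks per Mb kept all 374 tiles, and the block setting for the salt arm values repeated the main ones. The tests of 2 libraries against 2 cannot pass at any setting. The count of 389 thus overstates stability. Direction turned in 33 of the 570, of which 23 passed the threshold in neither fit. Among the other 10 were tile slopes with no normalization, 0.16 for the tile from 2 Mb and 0.17 for that from 3 Mb, since 374 of 374 tiles gained peaks with input before scaling. The arm fold difference lost its call with 1 mean per amount (-0.082) and kept it with any 1 library left out (-0.109 to -0.082). The width difference from chromosomes 1 and 2 lost its call at −log10 q of at least 5 (1.69 bp) and with 1 mean per amount (3.39 bp), and ran from 3.04 to 4.54 bp with 1 library left out.

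List length was varied in 3 ways. The first cut 12 lists to 43744 peaks and left the 100 ng list entire at 14845, so its lists were not all of 1 length. It gave -0.0095 for arm density, 0.654 bp and a fold of -0.010 against chromosomes 1 and 2, and r of 0.444 and 0.520 for density and 0.258 and 0.268 for width against input. The others were added after the data were seen. Without 100 ng, the 12 equal lists gave -0.0049 for arm density, 0.708 bp and -0.011 against chromosomes 1 and 2, and r of -0.859 and -0.074 for density, -0.834 for the arm density ratio, and -0.859 and -0.071 for the shares. All 13 lists at 14845 peaks gave -0.070 for arm density, 2.65 bp for arm width, 0.044 for arm fold, -2.92 bp and -0.078 against chromosomes 1 and 2, and r of -0.158 and -0.096 for density, -0.100 for the long-arm share, 0.248 and 0.244 for width and 0.742 and 0.641 for recovery. At −log10 q of at least 5 the arm density was -0.0057, the fold against chromosomes 1 and 2 -0.0010 and the r of the long-arm share -0.012. With 1 mean per amount the arm density was -0.00024.

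Leaving out 1 library gave an arm density difference from -0.00014 to 0.011, and r from -0.387 to 0.215 for the long-arm share, -0.696 to -0.161 for the arm density ratio, -0.853 to -0.100 for the short-arm share, -0.806 to 0.027 for short-arm width and -0.794 to 0.027 for long-arm width. The first value of each r is that without 100 ng. The counts of arm tiles ran from 0 to 4 rising and 0 to 13 falling, and those of all tiles from 13 to 99 rising and 6 to 83 falling. Slopes ran from -0.045 to -0.035 for the tile from 2 Mb, -0.033 to -0.022 for that from 3 Mb and 0.026 to 0.043 for that from 23.5 Mb.

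Rising and falling arm tiles numbered 0 and 4 at −log10 q of at least 5, 31 and 0 with no normalization, 1 and 1 with a pseudocount of 5, 0 and 3 with tiles of 2 Mb, and 0 and 3 with tiles on a shifted grid. With array weights, added after the effect of the 100 ng library was seen, they numbered 4 and 12. Over all 374 tiles they numbered 24 and 28 at −log10 q of at least 5, 374 and 0 with no normalization and 24 and 20 with a pseudocount of 5. They numbered 6 and 13 of 188 with tiles of 2 Mb and 22 and 27 of 380 on the shifted grid. With array weights they were 106 and 94, for covered bases 12 and 21, and with 12 lists cut and 100 ng entire 13 and 16. For salt, all tiles higher and lower numbered 10 and 1 for covered bases, 3 and 0 with tiles of 2 Mb and 1 and 1 with shifted tiles.

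Same-numbered libraries did not deviate together in 1 common direction (r = 0.014 over tiles for salt and CK(salt), -0.386 to 0.306 between input amounts), so the numbers were not taken as a pairing. Libraries of some amounts did move alike. At 5 and 3 µg the short arm held 152 and 151 peaks per Mb in replicate 1 and 182 and 184 in replicate 2. Each of these 2 pairs shared a run of library codes. Replicate 2 was also the denser at 500 and 250 ng, and replicate 1 at 8 and 1 µg. The libraries may thus not be independent. For the paired arm values, the 2 replicates of each amount were averaged and 100 ng was left out. The arm fold difference was then -0.109 (exact sign-flip, adjusted p = 0.188). The width difference from chromosomes 1 and 2 was 3.96 bp, and both were without a call. With so few values this test has little room to pass after adjustment, so the missing calls decide nothing. The relations to input were run with the replicate number as a block and without the unnumbered 100 ng library. They were -0.713 for the arm density ratio, -0.863 for the short-arm share, and -0.845 and -0.815 for the widths, all called. The long-arm share gave -0.393. The block fit of the tiles left out 100 ng too, and 4 arm tiles rose and 13 fell, of 101 and 84 in the genome. Leaving out 100 ng with no block also gave 4 and 13, of 99 and 83.

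Lost shares on the short and long arm were 14.5 and 15.7% at −log10 q of at least 5, beside 14.0% in the genome. They were 5.46 and 7.39% with lists of equal length (genome 5.73%) and 21.6 and 21.3% with 50% reciprocal overlap (genome 20.6%). The numbers gained were 1 and 2, 54 and 32, and 82 and 72 in the same order. As shares these were 0.095 and 0.221% (genome 0.352%), 4.72 and 3.28% (genome 4.23%), and 7.79 and 7.96% (genome 7.33%). Leaving out 1 library, which loosens the definition of lost and gained, gave 16.1 to 28.3% and 17.1 to 28.5% lost, beside 16.0 to 26.3% in the genome. It gave 15 to 85 and 9 to 96 gained, or 1.25 to 5.11% and 0.884 to 6.68%, beside 1.11 to 6.35% in the genome. The causes were not tested. The 100 ng library, the shallowest, held 1 of 324 short-arm regions of the weakest decile.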
